A study of Mus musculus with 13 samples.

Results

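The S100 calcium-binding proteins examined here are encoded by the genes S100a1, S100a3, S100a4, S100a6, S100a8, S100a9, S100a10, S100a11, S100a14 and S100a16. All 10 genes were among the 15213 genes listed for RNA sequencing of mammary tumors that overexpress TSG101 and of normal mammary glands. The genes were chosen by their symbols and with the tumor to gland contrast of these libraries already known. Their differences between tumors and glands are therefore given as a description, without p-values, and nothing is read from counts of calls among them. The 10 tumors came from 6 females of the label genotype MtTA Teto-TSG101wt, in which the MMTV-tTA transactivator drives a TetO-controlled, HA-tagged Tsg101 transgene. The MMTV promoter directs this expression to a mosaic subset of the luminal epithelium, and the transgenic line goes back to a single founder on an FVB/N background. The 3 control glands were those of wild-type (WT) FVB females, and neither the ages of the animals nor the reproductive stage of the glands are given. Mice A, C and E contributed 1 tumor each (tumors 1, 4 and 7), mice B and D contributed 2 tumors each (tumors 2 and 3, and 5 and 6), and mouse F contributed 3 tumors (8, 9 and 10). Thus, the tumors were not all independent samples.

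S100 proteins are small EF-hand proteins that change shape when they bind calcium and then dock onto target proteins such as annexins, cytoskeletal proteins and enzymes. Most of their genes lie next to each other in a cluster that belongs to the epidermal differentiation complex, a chromosomal region that also holds genes of the cornified envelope of the skin. S100A8 and S100A9 form a heterodimer (calprotectin) that is abundant in neutrophils and is also made by stressed or inflamed squamous epithelium. Outside the cell, the heterodimer acts on receptors such as TLR4 and RAGE.

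Levels are given as normalized cpm, in which the read count of a gene is scaled to the size of its library. The depth was 6176269 to 16835397 reads in the tumors and 11672487 to 23889042 reads in the glands. For a gene without any read, counting error alone allows up to 3 reads at 95% confidence, which were worth at most 0.683 normalized cpm in a tumor and 0.366 in a gland. Tsg101 itself was from 49.9 to 101.3 normalized cpm in tumors and at 45.6, 53.0 and 61.0 in glands 1, 2 and 3, without separating the transgene from the endogenous gene. Tumor 9 stood apart with 27.4% of its reads on the ribosomal RNA precursor Rn45s, against at most 9.32% in any other library. Gland 3 stood apart from the other glands in its level of short transcripts. Over 395 tested genes with less than 1 kb of exon, none of them an S100 gene, the median log2 deviation from each gene's mean over the 13 libraries was -1.03 and -0.90 in glands 1 and 2 and 0.71 in gland 3. In the tumors, the same measure ranged from -0.42 in tumor 4 to 0.87 in tumor 9. As 5 of the 10 S100 genes (S100a1, S100a4, S100a8, S100a9 and S100a11) have less than 1 kb of exon, this short-gene level is given beside the results it moves with. The labels name a university core facility and a company as sequencing sites without saying which libraries were made where, so that no batch could be assigned.

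The glands were rich in milk and fat transcripts. The 6 milk genes summed to 117394 to 175636 normalized cpm in the glands and to 1309 to 49195 in the tumors, and the 8 adipocyte genes to 3512 to 11047 in the glands and to 39.1 to 416 in the tumors. The 8 epithelial genes summed to 987 to 2094 normalized cpm in the glands and to 2129 to 4236 in the tumors, the 8 fibroblast genes to 3979 to 4488 in the glands and to 396 to 1152 in the tumors, and the 8 macrophage genes to 443 to 1785 in the glands and to 841 to 4448 in the tumors. The 13 listed hair follicle genes summed to 10.4 to 15.7 normalized cpm in the glands and to 125 to 3948 in the tumors, and the 7 listed skeletal muscle genes to 14.7 to 40.2 in the glands and to 4.94 to 2173 in the tumors, with the highest sum in tumor 4. In such bulk samples, fewer cells of a type and less RNA per cell cannot be told apart.

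Among the 10 genes, S100a8, S100a9 and S100a14 went from a few normalized cpm or less in most glands to far higher levels in the tumors, S100a3 and S100a6 were also clearly above the glands, S100a4, S100a10, S100a11 and S100a16 differed less, and S100a1 overlapped between the groups. For 7 of the 10 genes, all 10 tumors lay above all 3 glands, a pattern shared by 10.7% of the 11795 genes tested and by 10.1% of the 395 short genes. The same number of genes met the criteria of limma (adjusted p under 0.05 and more than 2-fold higher in the tumors) that were met by 10.2% of all genes tested and by 19.7% of the short genes. No S100 gene of the 10 was called lower, against 6.99% of all genes. Nothing is read from these counts, because the genes were selected on this contrast. All 10 genes passed the filter on low values, which asks for more than 5 normalized cpm in most of the 13 libraries and can therefore be passed through the 10 tumors alone, as by S100a3 and S100a14. They had a median log2 fold change of 2.60, beside 0.01 over all tested genes and 0.58 over the short genes. In terms of level, 9 of the 10 genes were highest among the glands in gland 3, the exception being S100a3. Without gland 3, all tumors lay above the remaining glands for 9 of the 10 genes, beside 21.2% of all genes tested, and the median change was 3.53 on the log2 scale.

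**Figure D1:**
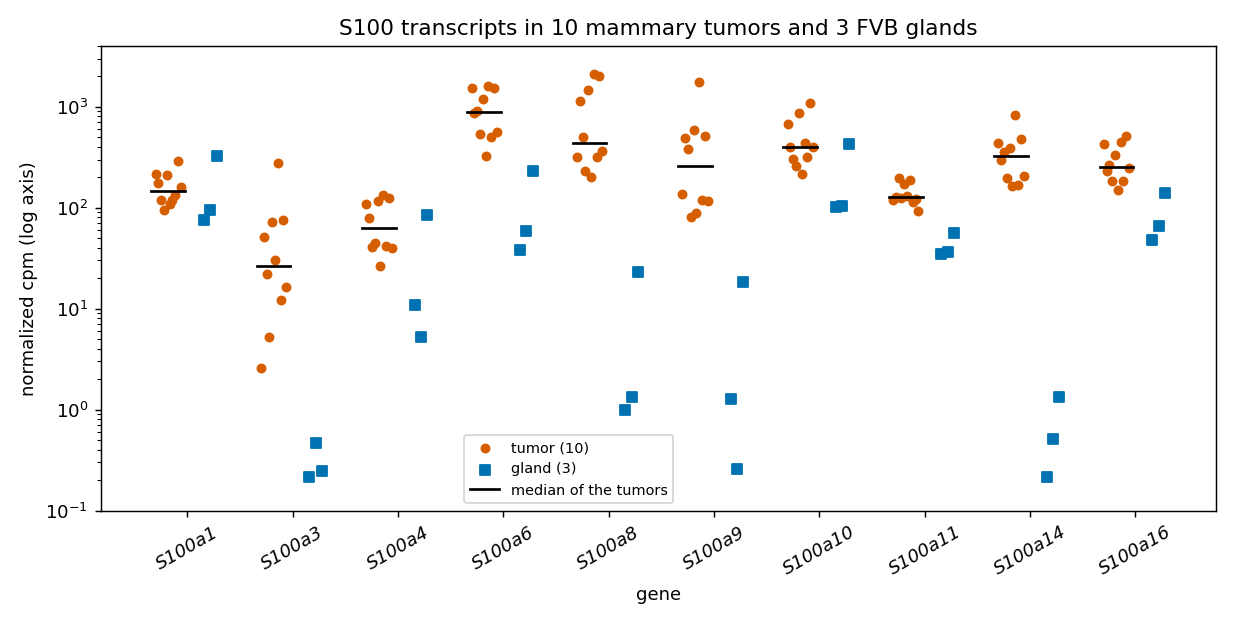
Level of each of the 10 S100 genes (normalized cpm, log axis) in every library. Circles are the 10 tumors, squares the 3 glands in the order 1, 2 and 3, and black lines the median of the tumors. Tumors and glands do not overlap for 7 genes, whereas S100a4 and S100a10 overlap through gland 3 and S100a1 through glands 2 and 3.

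S100a8 and S100a9 encode the subunits of calprotectin and lie at chr3:90669071-90670034 and chr3:90692630-90695721 of GRCm38.p6 (mm10), on opposite strands. Since both transcripts rose and fell together from tumor to tumor, the 250 bases upstream of their start sites are shown, as given by RefSeq for GRCm38.p6. The S100a8 window is chr3:90668821-90669070 on the plus strand, and the S100a9 window is chr3:90695722-90695971 on the minus strand. Capitals mark matches on either strand, with N for any base. The TATA box was searched for as TATAAA, and the site of the stress-responsive factor AP-1 as TGANTCA. For the C/EBP factors of myeloid and epithelial cells the letters were TTNCNNAA, and for the inflammatory factor NF-kB they were GGGNNNTCC.
S100a8: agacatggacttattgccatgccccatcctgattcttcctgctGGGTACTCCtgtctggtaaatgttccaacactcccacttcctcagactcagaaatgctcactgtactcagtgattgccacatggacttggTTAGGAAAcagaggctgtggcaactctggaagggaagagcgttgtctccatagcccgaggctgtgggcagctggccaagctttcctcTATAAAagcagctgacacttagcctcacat
S100a9: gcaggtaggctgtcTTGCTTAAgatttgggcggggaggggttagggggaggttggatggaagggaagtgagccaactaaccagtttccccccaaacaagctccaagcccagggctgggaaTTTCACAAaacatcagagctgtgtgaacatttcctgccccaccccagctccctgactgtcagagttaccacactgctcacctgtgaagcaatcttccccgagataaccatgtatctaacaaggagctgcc
In the S100a8 window, a NF-kB match ended 199 bases, a C/EBP match 110 bases and a TATA box 25 bases upstream of the start site. The S100a9 window held a C/EBP match ending 229 bases and another ending 123 bases upstream, and no TATAAA. The matches did not overlap each other. Of 32851 mouse promoter windows of this length, 12.4% held TATAAA, 6.75% the AP-1 letters, 36.8% the C/EBP letters and 15.2% the NF-kB letters. Among the 8 of the 10 genes with an entry in the promoter table, the AP-1 letters were found for S100a11 (ending 130 and 32 bases upstream) and in 1 of the 2 windows of S100a16, and TATAAA was also found for S100a4 and in 1 of the 4 windows of S100a3. The C/EBP letters were also found in 2 of the 4 windows of S100a3, and the NF-kB letters in 1 window each of S100a1, S100a3 and S100a4, so that neither was limited to S100a8 and S100a9. S100a10 and S100a14 had no entry. A match of letters is a description and not a binding site.

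The lowest S100a8 level in the tumors was 202 normalized cpm (tumor 6), the median was 433 and the highest was 2114 (tumor 7). Glands 1, 2 and 3 were at 0.985, 1.34 and 23.2 normalized cpm. The groups did not overlap, and even the lowest tumor was far above gland 3. The log2 fold change on the log2(normalized cpm + 1) scale was 6.96 (standard error 0.85). S100a9 was at 81.2 normalized cpm in its lowest tumor (tumor 4), at a median of 260.3 and at 1757 in its highest tumor (tumor 7). The glands were at 1.28, 0.258 and 18.2 normalized cpm, again without overlap. For S100a9, this change was 6.10 (standard error 0.93). Without gland 3, which held most of the gland reads of both genes, the log2 fold changes were 8.13 for S100a8 and 7.26 for S100a9.

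Tumors of the same mouse differed widely in both transcripts in mice D and F and less in mouse B. In mouse D, S100a8 was 7.27-fold higher in tumor 5 than in tumor 6, and in mouse F it was 6.42-fold higher in tumor 9 than in tumor 8, whereas the range over all 10 tumors was 10.4-fold. S100a9 differed 6.63-fold between the tumors of mouse D and 4.36-fold among those of mouse F, within a range of 21.6-fold over all tumors. In mouse B, tumors 2 and 3 differed 2.26-fold in S100a8 (1144 and 506 normalized cpm) and 1.27-fold in S100a9 (488 and 385). S100a8 was above S100a9 in normalized cpm in all 10 tumors, with a ratio between 1.20 (tumor 7) and 3.96 (tumor 9). Per kb of exon, S100a8 was above S100a9 in 8 of the 10 tumors, the exceptions being tumors 3 and 7.

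S100a8 and S100a9 were then related to Csf3r, which encodes the receptor for granulocyte colony-stimulating factor and marks neutrophils, and to Krt6a, which encodes a keratin of activated squamous epithelium. These reference genes were also named with results of these data known. Csf3r ranged from 7.41 to 53.8 normalized cpm in the tumors, with tumor 7 highest and tumor 3 next (36.1), against 4.50, 2.27 and 3.54 in the glands. Krt6a ranged from 70.8 to 1089 normalized cpm in the tumors, with the same pair of tumors highest (688 in tumor 3), against at most 0.155 in the glands, and reads it shares with its close paralog Krt6b could not be set apart. The log2 fold change was 1.99 for Csf3r (standard error 0.48) and 7.72 for Krt6a (standard error 0.60), given as a description, since both genes were named with this contrast known. As Csf3r and Krt6a were highest in the same tumors, relations to one and to the other are not separate observations.

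With the tumors of each mouse averaged (n = 6 mice), S100a8 correlated with Csf3r with a Pearson r of 0.901 (exact permutation of the pairings, two-sided, p = 0.00972, adjusted over 5 relations p = 0.0162) and a Spearman rho of 0.886 (exact permutation, adjusted p = 0.0556). S100a9 correlated with Csf3r with r = 0.958 (exact permutation, p = 0.00417, adjusted p = 0.0104) and rho = 0.943 (adjusted p = 0.0417). Both relations rested in part on mice B and E, which had the most Csf3r. Without these 2 mice, r was 0.514 for S100a8 and 0.623 for S100a9 over the 4 mice left, where no test was made. Without mouse E alone, the only mouse of tumor 7, r was 0.686 for S100a8 and 0.853 for S100a9, and neither passed the threshold (exact permutation, adjusted p = 0.278 and 0.104). Without mouse B alone, r was 0.911 and 0.964 (exact permutation, adjusted p = 0.0972 and 0.0625).

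For Krt6a, the relation of S100a8 did not pass the threshold (n = 6 mice, r = 0.801, exact permutation, p = 0.0611, adjusted p = 0.0611; rho = 0.600, adjusted p = 0.242). That of S100a9 did so with Pearson's r (0.887, exact permutation, p = 0.0278, adjusted p = 0.0347) but not with Spearman's rho (0.771, adjusted p = 0.128). Without mice E and F, which lay farthest from the median of Krt6a, r was 0.798 and 0.795 over 4 mice. Without mouse E alone, r was 0.310 for S100a8 and 0.553 for S100a9 (exact permutation, adjusted p = 0.396 for S100a9), and without mouse F alone it was 0.945 and 0.948, so that the relations to Krt6a depended on single mice. Without mouse A, B or D, r of S100a9 with Krt6a was 0.874, 0.882 and 0.886 (exact permutation, adjusted p = 0.104, 0.146 and 0.0729). With a mouse left out there are fewer pairings to permute, so that these misses of the threshold are not read. S100a8 and S100a9 correlated with each other at r = 0.981 (n = 6 mice, exact permutation, p = 0.00278, adjusted p = 0.0104; rho = 0.943, adjusted p = 0.0417), and r was 0.873 without mice C and E. Without mouse B or mouse E alone, it was 0.981 and 0.943 (exact permutation, adjusted p = 0.0625 and 0.104). Whether the relation to Csf3r differs from that to Krt6a was not tested.

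Over the 10 single tumors, given as a description since they share mice and libraries, r with Csf3r was 0.712 for S100a8 and 0.897 for S100a9, r with Krt6a was 0.423 and 0.669, and r of S100a8 with S100a9 was 0.937. Tumor 3 had the next highest Csf3r and Krt6a but only 506 normalized cpm of S100a8, and tumor 9 had 2027 normalized cpm of S100a8 with 16.8 of Csf3r and 177 of Krt6a. Accordingly, the ratio of S100a8 to Csf3r ranged from 14.02 in tumor 3 to 120 in tumor 9, and the ratio of S100a8 to Krt6a from 0.735 to 11.5 in the same tumors. The short-gene level of the library correlated with S100a8 at r = 0.443, with S100a9 at 0.189, with Csf3r at -0.215 and with Krt6a at -0.419 over the 10 tumors, and its part in these relations was not tested.

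**Figure D2:**
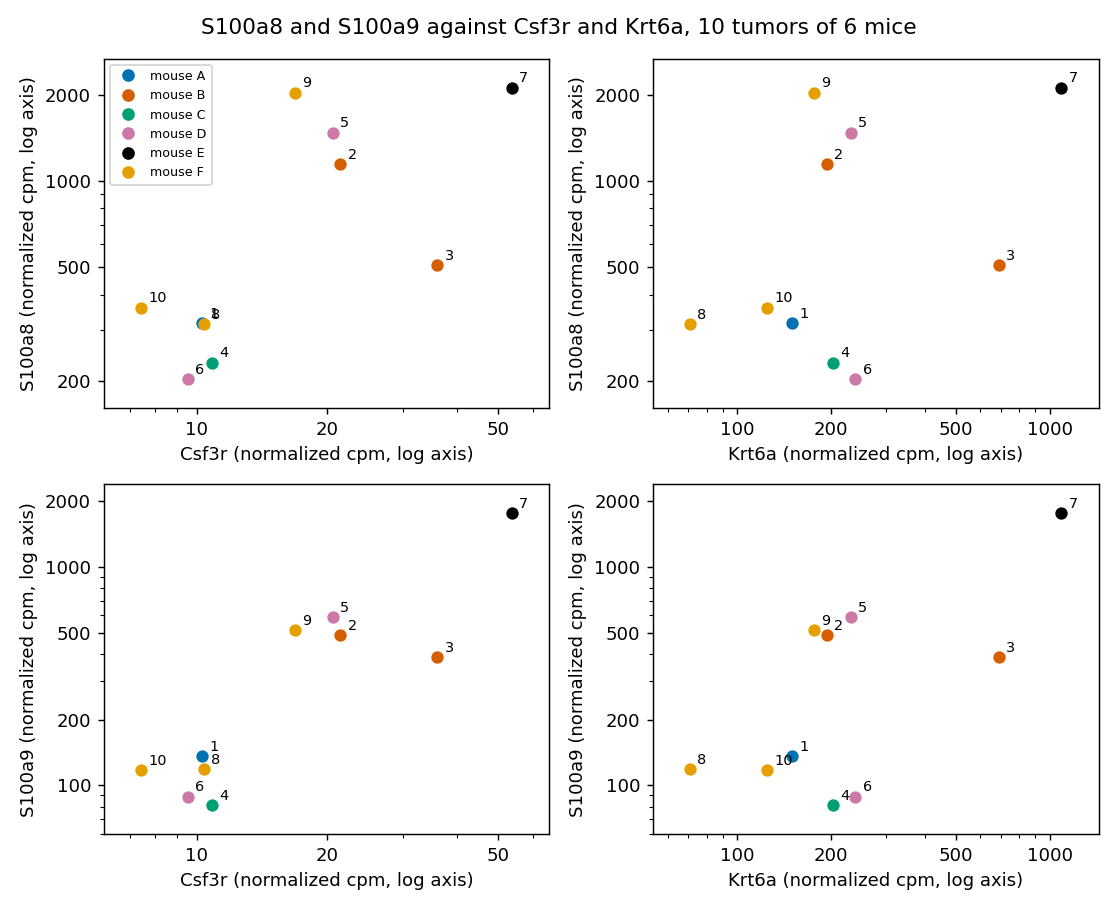
S100a8 (top) and S100a9 (bottom) against Csf3r (left) and Krt6a (right) in the 10 tumors, all in normalized cpm on log axes. Numbers are tumor numbers and colors are mice. Tumor 7 is highest in all 4 genes, and tumor 9 has much S100a8 for its Csf3r and Krt6a.

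Of 16 neutrophil markers, 13 were listed in the table and 5 passed the filter on low values. Of these, 4 were called higher in the tumors (Clec4d, Camp, Il1r2 and Csf3r) and none lower, beside 10.2% and 6.99% of all genes tested. Clec4d, Camp and Csf3r were under 5 normalized cpm in every gland and passed the filter only through the tumors, so that nothing is read from this count. The 13 markers summed to 48.4 to 209 normalized cpm in the tumors and to 96.3, 8.16 and 96.7 in glands 1, 2 and 3. Clec4d, a lectin receptor gene of myeloid cells, was at 6.37 to 40.1 normalized cpm in the tumors and 0.0428, 0.155 and 1.10 in the glands. The decoy receptor gene Il1r2 was at 4.30 to 34.2 in the tumors and 1.16, 0.620 and 6.34 in the glands. Mmp9, which also passed the filter, was not called. It was at 3.48 to 26.5 normalized cpm in the tumors and at 6.47, 3.20 and 12.2 in the glands. The granule gene Mpo was at no more than 2.05 normalized cpm and Retnlg at no more than 2.73 in any tumor. Camp, which encodes an antimicrobial peptide of neutrophils and keratinocytes, had 2.08 to 82.8 normalized cpm in the tumors and was highest in tumor 9. Of 14 squamous markers, 13 were listed, and the 11 that passed the filter were called higher in the tumors, beside 10.2% of all genes tested. Since 8 of the 13 were at or under 3 reads in every gland, most of them could pass the filter only through the tumors, and nothing is read from this count. The squamous markers had summed levels of 618 to 4802 normalized cpm in the tumors against 17.9, 17.2 and 41.6 in the glands. The mean of the listed markers was also used in place of a single gene (n = 6 mice). S100a8 had r = 0.934 with the neutrophil list and 0.938 with the squamous list, and S100a9 had 0.982 and 0.957. The lists hold Csf3r and Krt6a themselves. As this alternative was chosen after seeing the data, no test is given for it. The part of either cell type in the levels of S100a8 and S100a9 was not tested.

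S100a14 and S100a16 are neighbouring genes that are expressed mainly in epithelia. S100a14 (chr3:90526849-90528837) was at 165 normalized cpm in its lowest tumor (tumor 6), at a median of 326 and at 827 in its highest (tumor 7), while the glands were at 0.214, 0.516 and 1.34. Its log2 fold change of 7.57 (standard error 0.43) was the highest of the 10 genes with all libraries, but without gland 3 it was 7.83 and below that of S100a8 (8.13). The glands held 5, 10 and 11 reads of S100a14, and with a pseudocount of 5 in place of 1 the log2 fold change was 5.79, again below that of S100a8 (5.89). Within mice, S100a14 differed at most 2.85-fold (mouse F). S100a16 (chr3:90537254-90543151) was lowest in tumor 6 at 148 normalized cpm, had a median of 255 and was highest in tumor 9 at 512. The glands were at 47.8, 65.7 and 138 normalized cpm, and gland 3 came close to the lowest tumor without overlap. Its log2 fold change was 1.85 (standard error 0.39).

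S100a3 encodes a protein of the hair cuticle that is modified by the peptidylarginine deiminase PADI3. It varied most of all 10 genes, from 2.58 normalized cpm in tumor 1 over a median of 26.1 to 278 in tumor 7, a range of 108-fold. The glands were at 0.214, 0.465 and 0.244 normalized cpm, from 5, 9 and 2 reads, and did not overlap with the tumors. This gave a log2 fold change of 4.43 (standard error 0.97). The tumors of mouse F differed 6.29-fold, those of mice B and D 2.35-fold each. The RefSeq gene model of S100a3 (chr3:90560356-90602706) is much longer than those of its neighbours. As its merged GENCODE exons come to 5.66 kb, its level per kb is not set against the others. Padi3 ranged from 2.10 to 216 normalized cpm in the tumors against 2.78, 1.60 and 0.610 in the glands, with 9 of 10 tumors above all glands, and its log2 fold change was 3.35. As Padi3 passed the filter only through the tumors, no test is given for it. The genes most like S100a3 over the 10 tumors were Mt4 (r = 0.981), Krt35 (0.963), Dapl1 (0.957), Bmp2 (0.944) and Krt26 (0.944), of which Krt35 and Krt26 encode keratins of the hair follicle.

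S100a6 (calcyclin) and S100a4 (metastasin) are neighbours that bind cytoskeletal and signalling proteins, and S100a4 is best known from motile mesenchymal and immune cells. S100a6 (chr3:90612894-90614414) was lowest in tumor 6 at 325 normalized cpm, had a median of 880 and was highest in tumor 7 at 1593. Glands 1, 2 and 3 were at 38.5, 58.5 and 232 normalized cpm, below all tumors. Its fitted log2 change was 3.35 (standard error 0.55). S100a4 (chr3:90603770-90606045) was lowest in tumor 6 at 26.3 normalized cpm, had a median of 62.3 and was highest in tumor 7 at 134, against 10.8, 5.27 and 84.5 in the glands. Only 4 tumors (1, 5, 7 and 9) were above gland 3, so that the groups overlapped. The log2 fold change of S100a4 was 1.84 (standard error 0.66) with all glands and 2.94 without gland 3. In mouse D, tumor 5 had 4.43-fold more S100a4 and 3.65-fold more S100a6 than tumor 6.

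S100a10 and S100a11 encode partners of annexins, and S100a10, which no longer binds calcium, forms a tetramer with annexin A2. S100a10 (chr3:93555117-93564645) ranged from 216 normalized cpm (tumor 6) over a median of 398 to 1081 (tumor 9). The glands were at 101.5, 105.0 and 431 normalized cpm, and only 4 tumors (1, 5, 7 and 9) were above gland 3. This corresponds to a log2 fold change of 1.37 (standard error 0.51). S100a11 (chr3:93520496-93526288) was the most even of the 10 genes, from 92.8 normalized cpm (tumor 10) over a median of 126 to 197 (tumor 3), a range of 2.12-fold. The glands were at 34.9, 36.8 and 56.6 normalized cpm, below all tumors. On the log2 scale the difference was 1.67 (standard error 0.23). Reads that S100a11 shares with its pseudogene S100a11-ps could not be set apart.

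S100a1 encodes a protein of heart and skeletal muscle that acts on calcium pumps and release channels, and its means in tumors and glands were nearly equal, unlike those of the other genes. It ranged from 94.1 normalized cpm (tumor 4) over a median of 148 to 291 (tumor 9), and the glands were at 74.97, 95.6 and 328. Gland 3 was above every tumor, and glands 1 and 2 were near the lower end of the tumors. The log2 fold change of S100a1 was 0.21 (standard error 0.40), and its sign turned under several alternatives, for example to -0.59 with the libraries scaled to the short genes. Tumor 4, which had the highest sum of skeletal muscle markers, had the lowest S100a1. The start of the S100a1 gene model (chr3:90511034-90514330, minus strand) overlaps the start of the S100a13 model on the plus strand. No source used here says whether reads were counted by strand, so that reads in the overlap cannot be assigned. For S100a13 itself, limma gave a log2 fold change of 0.45 with an adjusted p of 0.318.

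The level of several of these genes moved with the short-gene level of the library. Across the 10 tumors, the correlation with this level was highest for S100a1 (r = 0.967) and S100a10 (0.892), followed by S100a16 (0.639), S100a4 (0.611), S100a6 (0.534), S100a8 (0.443), S100a14 (0.316), S100a9 (0.189), S100a3 (0.094) and S100a11 (-0.346). S100a10, S100a16 and S100a6 have more than 1 kb of merged exon, and S100a9 and S100a11 have less. Merged exons can be longer than a single transcript, and the part of transcript length was not tested. When each library was scaled to the short genes, a choice made after seeing the data, the median change over all tested genes shifted from 0.01 to -0.76 on the log2 scale. On this scale, the log2 fold changes were 7.21 for S100a14, 6.45 for S100a8, 5.71 for S100a9, 4.02 for S100a3, 2.56 for S100a6, 1.11 for S100a4, 1.06 for S100a16, 0.88 for S100a11, 0.58 for S100a10 and -0.59 for S100a1. More than 2-fold higher were 7 of the 10 genes (5.82% of all genes tested) and, relative to the shifted median, 9 of the 10 (11.8% of all genes tested), the exception being S100a1. All tumors lay above all glands for 6 of the 10 genes on this scale, since S100a11 now overlapped, beside 3.5% of all genes tested. Libraries were also scaled to the epithelial genes Epcam, Krt8, Krt18, Cdh1, Krt7 and Cldn7. Of these, Krt7 itself had a log2 fold change of 3.32, and the others ranged from 0.08 (Krt8) to 0.75 (Cdh1). The part of Krt7 in this scaling was not tested. Under it, all tumors lay above all glands for 4 of the 10 genes, since S100a6 and S100a16 overlapped as well, beside 3.7% of all genes tested. More than 2-fold higher were 6 of the 10 (5.49% of all genes tested), or 9 relative to the shifted median (11.9%).

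**Figure D3:**
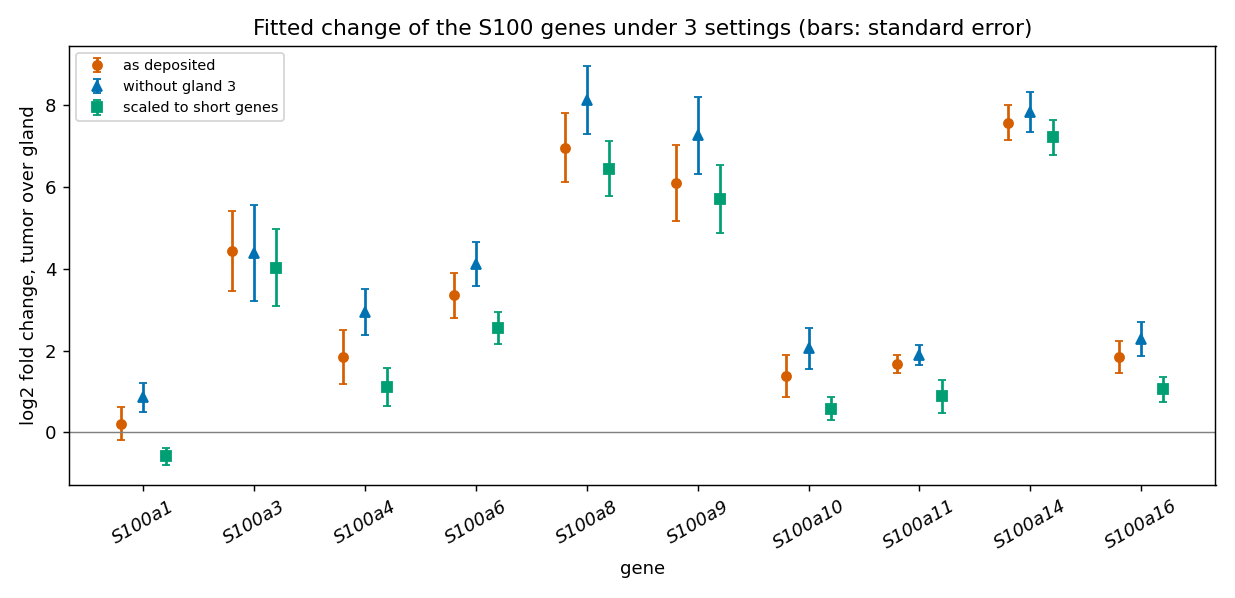
Fitted log2 fold change of each gene, tumor over gland, from all libraries as deposited (circles), without gland 3 (triangles) and with each library scaled to the short genes (squares). Bars are standard errors. S100a3, S100a8, S100a9 and S100a14 stay above 4 in all 3 settings, and S100a1 changes sign.

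Across the 10 tumors, the 45 pairs of the 10 genes had correlations between -0.20 and 0.96 with a median of 0.68, and between -0.25 and 0.94 with a median of 0.54 after scaling to the short genes. S100a6, S100a16, S100a14 and S100a4 varied together most closely, with r = 0.96 for S100a6 and S100a16, 0.94 for S100a6 and S100a14 and 0.93 for S100a6 and S100a4. S100a8, S100a9 and S100a3 also had high values among themselves, with r = 0.94 for S100a8 and S100a9, 0.85 for S100a9 and S100a3 and 0.83 for S100a8 and S100a3. S100a1 and S100a10 correlated with each other at 0.92 and both with the short-gene level, and S100a11 followed none of the genes with r above 0.69. All points of these correlations share libraries and, in part, mice.

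**Figure D4:**
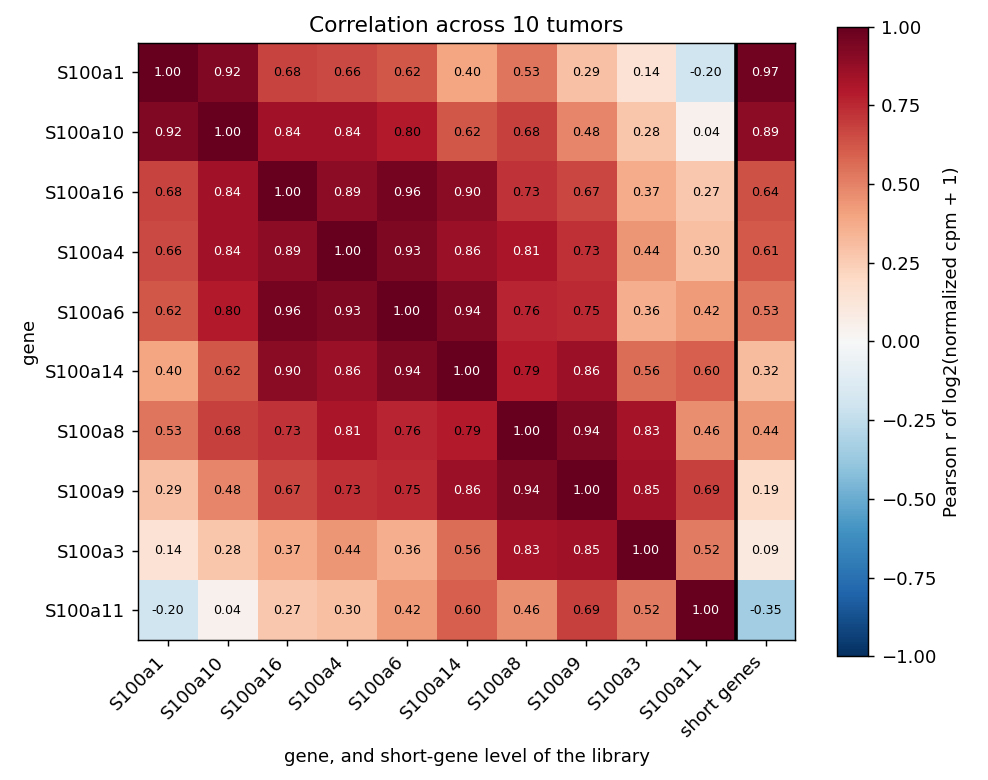
Pearson correlation of log2(normalized cpm + 1) between the 10 genes across the 10 tumors, and, to the right of the black line, with the median deviation of short genes in the library. S100a1 and S100a10 have values of 0.97 and 0.89 in that column, and S100a8 and S100a9 have 0.44 and 0.19.

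The genes that resembled each gene most across the 10 tumors differed between the groups just named. For S100a9 these were Il36g (r = 0.972), Defb14 (0.967), Il36a (0.951), Crct1 (0.950) and Klk7 (0.949), which include the epithelial cytokines of the interleukin-36 family and a kallikrein of the cornified skin. For S100a8 they were Defb14 (0.943), Apold1 (0.939), Upp1 (0.935), Cstdc5 (0.930) and Cdk20 (0.925). Thus, the defensin gene Defb14 was among the nearest 5 of both. S100a6 was most like Grpel2 (0.972), Gsap (0.967), the neutrophil chemokine Cxcl1 (0.959), Ly6g6e (0.956) and the interleukin gene Il1b (0.952), and S100a16 most like Lipk (0.975), Hopx (0.974), Ly6g6e (0.970), Slc6a14 (0.965) and Insig2 (0.961). For S100a14 the nearest genes were Nipal1 (0.976), Zdhhc13 (0.965), Arap2 (0.959), the epidermal protease inhibitor gene Spink5 (0.956) and Adgrf4 (0.953), and for S100a4 they were Samsn1 (0.948), Ecscr (0.947), Zfp995 (0.942), Acot9 (0.938) and Meox1 (0.938). S100a11 was nearest to Srxn1 (0.939), Fam107b (0.934), the stress gene Gadd45b (0.933), Nupr1 (0.932) and Acod1 (0.931). S100a1 was nearest to the translation factor gene Eif1a (0.990), the actin regulator gene Arpc5 (0.989), Ntan1 (0.985), Rwdd1 (0.983) and Pyurf (0.982), and S100a10 to Rnf11 (0.987), Nabp1 (0.979), BC028528 (0.979), Casp4 (0.978) and Snap23 (0.977). Each set is the top of 11795 genes ranked over 10 points, and such ranks are given as a description.

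Of the 16 relations of the other 8 genes to Csf3r and Krt6a over 6 mice, only those of S100a11 passed the threshold, and not under every scaling. S100a11 had r = 0.915 with Csf3r (n = 6 mice, exact permutation, p = 0.00556, adjusted over 16 relations p = 0.0444; rho = 0.829, adjusted p = 0.311) and r = 0.946 with Krt6a (exact permutation, p = 0.00139, the smallest that 6 mice allow, adjusted p = 0.0222; rho = 1, adjusted p = 0.0444). Without the 2 mice farthest from the median of the reference gene, r was 0.854 and 0.907. With the libraries scaled to epithelial genes, neither passed (exact permutation, adjusted p = 0.0778 for Csf3r and 0.111 for Krt6a), and that to Csf3r also missed the threshold with a pseudocount of 5 (adjusted p = 0.0556) or scaled to short genes (adjusted p = 0.120). With 1 mouse left out, r was between 0.832 and 0.970 for Csf3r and between 0.932 and 0.978 for Krt6a. With 5 mice the smallest p of the exact permutation test is 0.00833, so that after adjustment over 16 relations these could hardly pass, and their missing the threshold is not read. For S100a3, r was 0.843 with Csf3r and 0.786 with Krt6a, and for S100a14 it was 0.760 and 0.742 (exact permutation, adjusted p between 0.178 and 0.256). S100a4, S100a6 and S100a16 had r between 0.357 and 0.514, and S100a1 and S100a10 had negative values between -0.499 and -0.155, none of them past the threshold.

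In terms of level per kb of exon, the order of the tumor means was S100a8 (1252 normalized cpm per kb), S100a9 (819), S100a6 (695), S100a10 (407), S100a11 (271), S100a1 (235), S100a14 (203), S100a16 (185) and S100a4 (130). The tumor values of each gene overlapped with those of the next gene in this order. In the glands the order of the means was different, with S100a1 (239 normalized cpm per kb) and S100a10 (175) at the top, S100a11 (83.6), S100a6 (80.3), S100a4 (57.4) and S100a16 (51.9) in the middle, and S100a9 (12.6), S100a8 (12.2) and S100a14 (0.400) at the bottom. Gland 3 was the highest gland for each of these genes. S100a8, for example, was at 1.42, 1.93 and 33.4 normalized cpm per kb in glands 1, 2 and 3. In glands 1 and 2, S100a4 (18.5 and 9.02) lay below S100a16 (29.6 and 40.6). In the tumors, the place of S100a9 rested on tumor 7 (3367 normalized cpm per kb). Without this tumor the means were 1053 for S100a8, 643 for S100a6 and 535 for S100a9, and by the median of the 10 tumors S100a6 (644) was above S100a8 (624) and S100a9 (499).

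Of 7 S100 genes outside the 10, 4 were listed and passed the filter, and 3 of them were called higher in the tumors, beside 10.2% of all genes tested. The 3 called genes, S100a7a, S100b and S100g, were under 5 normalized cpm in every gland and passed the filter only through the tumors. Nothing is therefore read from this count, and no test is given for these genes. S100a7a, which encodes a psoriasin-like protein of inflamed skin, had 5.63 to 78.8 normalized cpm in the tumors and 0, 0.103 and 0.366 in the glands (log2 fold change 4.71). S100b, known from glia and adipocytes, had 33.1 to 99.9 normalized cpm in the tumors and 2.18, 1.03 and 4.75 in the glands (log2 fold change 4.30). S100g, which encodes calbindin-D9k, had 3.49 to 129.5 normalized cpm in the tumors and was not detected in any gland. With the floor of 3 reads per gland library in place of 0, the tumors had at least 150.3-fold more S100g (log2 fold change 4.32). S100b lies on chromosome 10 and S100g on chromosome X, away from the cluster.

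All 10 genes lie on chromosome 3, and S100a1 and S100a10 mark the ends of an interval of 3.05 Mb (chr3:90511034-93564645). It held 53 listed genes, of which 41 were not S100 genes. Of these, 10 passed the filter on low values and were called higher in the tumors, beside 10.2% of all genes tested. As 8 of the 10 had no read in any gland and Sprr1a hardly any, they passed only through their level in the tumors, and nothing is read from this count. Their largest log2 fold changes were those of the cornified envelope gene Sprr1a (7.64), the repetin gene Rptn (7.49) and Prr9 (7.28). No test is given for these genes. Without the filter, limma called 20 of the 41 genes higher and none lower, beside 10.5% and 10.1% of the 15213 genes of that fit.

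**Figure D5:**
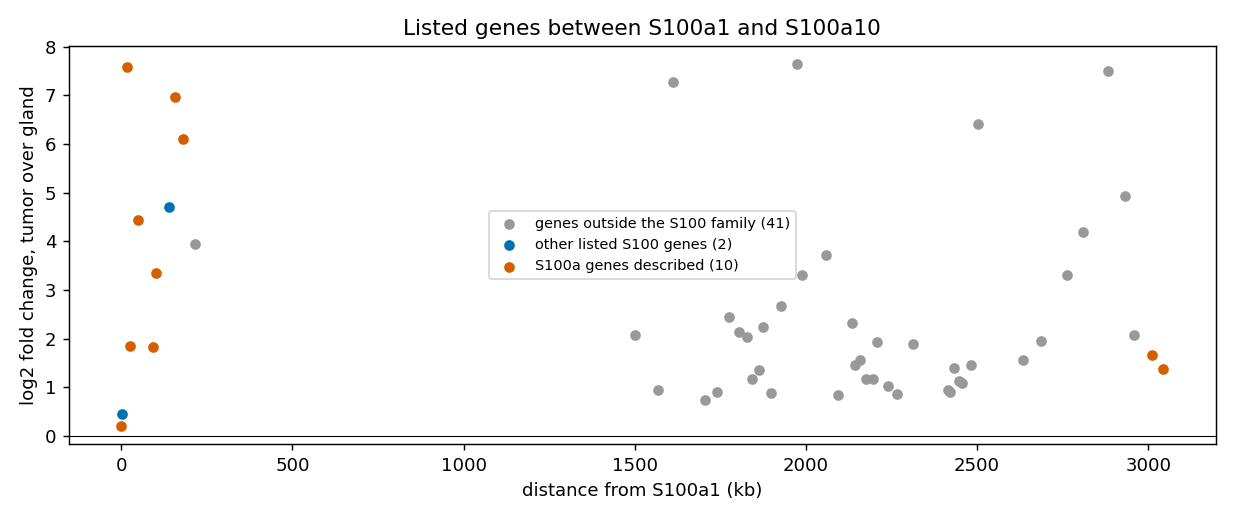
Log2 fold change (tumor over gland) of the 53 listed genes between S100a1 and S100a10 against the distance of each gene from S100a1 in kb, from the fit without the filter on low values. All 53 values are above 0. S100a1 and S100a13 are the lowest at 0.21 and 0.45, and S100a14, S100a8 and S100a9 are the highest S100 genes.

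The fused S100 genes of the same region encode large structural proteins with an S100 domain at one end. All 7 were listed, and 4 passed the filter and were called higher in the tumors, beside 10.2% of all genes tested. These were Rptn, the trichohyalin gene Tchh of the hair follicle (log2 fold change 4.92, adjusted p = 2.09e-04, limma), the hornerin gene Hrnr (4.19) and the filaggrin gene Flg (3.30). Of these, Rptn, Hrnr and Flg had no read in any gland and passed the filter only through the tumors. Nothing is therefore read from the count, and no test is given for Rptn, Hrnr and Flg. Rptn had 69.3 to 837 normalized cpm in the tumors and was not detected in the glands, at least 1138-fold higher with 3 reads per gland library in place of 0. Tchh had 94.0 to 1912 normalized cpm in the tumors and 6.72 to 13.1 in the glands.

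Genes of the receptors and partners of S100 proteins moved in both directions. Of 8 receptor genes, 7 passed the filter, 2 were higher and 1 was lower, beside 10.2% and 6.99% of all genes tested, with a median log2 fold change of 0.33 beside 0.01. The gene Ager of the receptor RAGE was at 6.15 to 11.6 normalized cpm in the tumors and 2.78, 2.37 and 2.80 in the glands (log2 fold change 1.32). As Ager passed the filter only through the tumors, its call is not read and no p is given for it. The TLR4 co-receptor gene Cd14 rose by 1.03 on the log2 scale (adjusted p = 0.00523, limma). With edgeR, the value of Cd14 was 0.99, short of a 2-fold change. The calls of Ager and Cd14 were both lost with the libraries scaled to the short genes or to epithelial genes. Cd36, the fatty acid transporter of adipocytes that also binds S100A8 and S100A9, fell by 5.07 on the log2 scale (adjusted p = 7.99e-05), together with the fall of adipocyte genes, whose part was not tested. For Tlr4 the value was 0.15 (adjusted p = 0.744).

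Of 15 genes of intracellular partners, 13 were listed and 12 passed the filter, and 5 of these were higher and 1 lower, again beside 10.2% and 6.99% of all genes, with a median log2 fold change of 0.60. The largest rises were those of the calcium channel gene Trpv6 (4.67 on the log2 scale), Padi3 and the annexin gene Anxa1 (2.49, adjusted p = 9.83e-05, limma). The product of Trpv6 is a partner of S100A10 with annexin A2, and that of Anxa1 a partner of S100A11. Trpv6 and Padi3 were under 5 normalized cpm in every gland and passed the filter only through the tumors, so that no p is given for them. Anxa2, the partner of S100A10, had 401 to 749 normalized cpm in the tumors and 114, 136 and 160 in the glands (log2 fold change 1.84, adjusted p = 2.63e-05). Ahnak was the fifth gene that rose (1.02, and 0.99 without gland 3, adjusted p = 0.0157 with all libraries), and its call and that of Anxa2 were lost with the libraries scaled to the short genes or to epithelial genes. Anxa11, a partner of S100A6, fell by 1.05 on the log2 scale (adjusted p = 0.0121). Scaled to epithelial genes, 3 of the partner genes were called higher and 3 lower, with Anxa6 and Myh9 added to the lower ones, beside 4.58% and 35.9% of all genes under this scaling.

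Of 11 genes of cytokines, receptors and transcription factors that are linked to the induction of S100a8 and S100a9, 10 were listed and 9 passed the filter, and 3 of these were higher and 1 lower (10.2% and 6.99% of all genes), with a median log2 fold change of 0.37. The interleukin gene Il1b had a log2 fold change of 3.79, but it passed the filter only through the tumors, so that no p is given for it. The oncostatin M receptor gene Osmr rose with 1.96 (adjusted p = 1.01e-06, limma), and the transcription factor gene Cebpd with 1.81 (adjusted p = 5.14e-06). The call of Cebpd was lost with both of the above scalings. Cebpa fell by 1.74 on the log2 scale (adjusted p = 3.89e-04), and Stat3 and Cebpb had log2 fold changes of 0.37 and 0.26 (adjusted p = 0.338 and 0.667).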

How the data were processed

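RNA of flash-frozen tissue was sequenced with paired ends. Mapping to mm10 was done by the authors with Rsubread, counting with featureCounts (also named in the submitters' processing notes) and normalization with edgeR. The strand setting is not given in the sources used here. The values deposited by the authors are signal values, in which each read count was scaled by the effective size of its library, and are called normalized cpm. In each library 100% of the values below 1000 reads were whole multiples (within 0.1) of the value of a single read, and read counts were recovered on this basis.

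Values were analysed as log2(normalized cpm + 1) with limma 3.58.1 (R 4.3.3), with all 13 libraries and condition as the only term. The filter removed 3418 genes that did not exceed 5 normalized cpm in most libraries and kept 11795 for the test, at a Benjamini-Hochberg adjusted p under 0.05 and more than 2-fold change. edgeR 4.0.16 found 2074 and DESeq2 1.42.0 found 2167 such genes on the recovered reads, against 2029. Self-tests on simulated data were run for the limma fit. Correlations used the mean of the tumors of each mouse and exact permutation tests (scipy 1.17.1). No pair of libraries was alike within counting noise. Exon lengths are merged exons of GENCODE M21, and positions and promoter sequences are those of RefSeq for GRCm38.p6.

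The 10 genes, the gene lists and the reference genes were chosen with earlier results of these data known. The named genes were the 10 genes, Csf3r, Krt6a, the 5 genes most correlated with each of the 10, and the 3 largest rises and falls in each list and in the chromosome 3 interval. Genes outside this rule that are named with a value (such as Tlr4, Stat3, Anxa2 and the marker genes) were picked after their values were seen. The values of 1 neutrophil marker are included in the sums and means of that list but are not reported here. Alternatives were other pseudocounts, no filter, other tests, other scalings, the mouse or the replicate number as a block, and leaving out libraries or mice. p-values measure the spread between these samples, and tumors of the same mouse were treated as separate samples in limma. The consensus correlation between tumors of the same mouse was 0.0477.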

Additional observations from a re-analysis of the deposited data

Results flagged for a closer look

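In each group of 10 tumors, the highest or lowest value was set apart when its gap to the next, divided by the whole range, was above 0.466 (Dixon's criterion), for the 10 S100 genes, the other listed S100 genes, Csf3r and Krt6a (16 genes in all). For normally distributed values, chance sets apart about 1 in 20 groups. The criterion was applied to normalized cpm, which were skewed over the tumors, so that this rate is not read for the genes below. Whether their values are also set apart on the log2 scale was not tested. S100a3 was at 278 normalized cpm in tumor 7, against 76.2 in the next tumor. S100a9 was at 1757 normalized cpm in tumor 7, against 589 in the next. S100a14 was at 827 normalized cpm in tumor 7, against 475 in the next. S100g was at 129.5 normalized cpm in tumor 9, against 54.4 in the next.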

How the results depend on the processing

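The limits of these values are set by the 3 glands, of which gland 3 differs from the others in its short-gene level, by the 6 mice behind the 10 tumors and by low gland counts, which leave the fold changes of S100a3 and S100a14 dependent on the pseudocount. Of 250 values of the 10 genes under 25 alternatives, 228 moved by less than the spread between tumors, 16 moved by more and 6 changed sign, all 6 for S100a1. The log2 fold change of S100a1 (0.21) was -0.035 with DESeq2, -0.047 with edgeR, -0.65 scaled to epithelial genes and -0.59 scaled to short genes, and between -0.20 and 0.85 with 1 library left out. Scaling to the epithelial genes named above, of which Krt7 itself was higher in the tumors, shifted the median of all genes to -0.81. Under it, the 2029 genes called became 4777 (540 higher and 4237 lower, against 1204 and 825), and with short genes 2693 (527 and 2166). Without the filter 3141 genes were called. With the replicate number as a block 544 genes were called, but same-numbered tumors and glands come from different animals, and their deviations correlated at -0.58, 0.04 and -0.66, so that the numbers do not pair them. With 1 library left out, between 1636 and 2627 genes were called. The 20 genes called in the 5 lists (17 higher and 3 lower) became 15 to 23 under the alternatives, with 12 higher and 6 lower when scaled to epithelial genes and 12 and 3 when scaled to short genes. With 1 mouse left out, r ranged from 0.69 to 0.96 for S100a8 with Csf3r, 0.85 to 0.98 for S100a9 with Csf3r, 0.31 to 0.95 for S100a8 with Krt6a, 0.55 to 0.97 for S100a9 with Krt6a and 0.94 to 1.00 for S100a8 with S100a9. S100a8 with Krt6a passed the threshold without mouse F and when scaled to short genes (0.85), a choice made after seeing the data. With the squamous list, which holds Krt6a and was also used after seeing the data, r was 0.94. Relations of other genes changed sign as follows, and the cause was not tested. S100a10 with Csf3r was 0.066 scaled to epithelial genes, 0.0033 scaled to short genes and 0.15 over 10 tumors, with Krt6a 0.033 scaled to short genes. Without the 2 farthest mice, r with Csf3r and Krt6a was -0.40 and -0.56 for S100a4, -0.50 and -0.36 for S100a6, -0.31 and -0.20 for S100a14 and -0.48 and -0.50 for S100a16. With 1 mouse left out, r with Csf3r ranged from -0.64 to 0.15 for S100a10, -0.25 to 0.86 for S100a4, -0.023 to 0.93 for S100a6 and -0.25 to 0.79 for S100a16, and with Krt6a from -0.36 to 0.83 for S100a4, -0.20 to 0.84 for S100a6, -0.0056 to 0.91 for S100a14 and -0.47 to 0.69 for S100a16.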
